A study of Mus musculus with 2 samples.

Results

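Solute carriers are the membrane proteins that move sugars, amino acids, ions, metals, vitamins and metabolic intermediates across the plasma membrane and the membranes of organelles. In the testis, germ cells behind the barrier formed by Sertoli cells depend on transporters for lactate, pyruvate and hexoses, and several germ-cell carriers replace relatives used in other tissues. This is best known for the mitochondrial ADP and ATP carriers, whose X-linked member is silenced with the rest of the X chromosome during meiosis.

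The members were chosen by their symbol and their level: protein-coding genes with a solute carrier symbol that stood at 10 TPM or more in at least 1 of the 2 libraries (TPM is a share of all transcripts in a library, corrected for gene length). This gave 95 of the 342 solute carrier genes in a table of 53801 genes. Of the other solute carrier genes, 141 reached 1 TPM but not 10 TPM in the higher library, 101 were above 0 and under 1 TPM in both and 5 were listed at 0 in both. Slc7a6os and Slc4a1ap share only the start of their symbol, and are counted among the 95 but put in no substrate class. The members just inside the threshold were Slc25a46 (9.80 TPM in the wild-type library and 10.05 TPM in the knockout-labelled library), Slc41a2 (7.94 and 10.63 TPM) and Slc6a9 (3.51 and 10.65 TPM). Just outside it lay Slc30a7 (6.22 and 9.96 TPM) and Slc7a7 (4.68 and 9.36 TPM).

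Both libraries are labelled as primary spermatocytes, the germ cells in meiosis, of mouse testis. The protocol names RNA from sorted spermatocytes and from total testis, and does not say which was used for which library. One library had the genotype SMC1beta WT and 1 the genotype SMC1beta knockout overexpressing SMC1alpha. SMC1beta is the meiosis-specific form of a cohesin ring subunit and SMC1alpha is the form of all cells. Age, strain, the number of animals and the promoter that drives SMC1alpha are not given in the labels, and the "4N" in both titles is not explained there. The second library is called the knockout-labelled library, because Smc1b stood at 76.1 TPM in the wild-type library and still at 62.9 TPM in it, while Smc1a stood at 0.51 and 28.75 TPM.

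With 1 library per genotype there is no spread between animals, so no difference below has a replicate check or a p-value, and each comparison is of these libraries alone. The log2 ratio divides TPM + 1 in the knockout-labelled library by the same quantity in wild type, and so makes differences of low genes look smaller. Where a pair of values is given for a gene, wild type comes first. A gene is counted as 2-fold higher or lower at a log2 ratio of 1 or more, or of -1 or less. The labels state a sequencing aim of at least 40000000 reads, but TPM keeps no counts, and the reads behind a value are unknown. Protein-coding genes made up 62.6% of the wild-type library and 49.0% of the other, so every ratio was also computed after 3 rescalings.

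Marker genes of several cell types differed between the libraries. Of the 20 listed spermatocyte markers, 6 were 2-fold higher and 4 were 2-fold lower in the knockout-labelled library. They summed to 7071 and 5110 TPM, wild type first, and to 3672 and 3525 TPM without Ldhc, the most abundant of them. All 20 listed spermatid markers were 2-fold lower in the knockout-labelled library, with sums of 3552 and 338.5 TPM. Leydig cell markers were 2-fold higher in 10 of 11 and summed to 125.3 and 1884 TPM, and Sertoli cell markers were 2-fold higher in 12 of 16 at 1 TPM or more and summed to 120.2 and 620.6 TPM. Spermatogonia markers were 2-fold higher in 12 of 17, with sums of 52.8 and 141.3 TPM and Rhox13 listed at 0 in wild type. Macrophage markers were 2-fold higher in 6 and lower in 1 of 10, with C1qa and Fcer1g listed at 0 in wild type. Their sums were 54.7 and 40.7 TPM, of which Aif1 made up most in wild type, and 4.66 and 32.9 TPM without it. The part of these cell types in the results below was not tested, and in such bulk RNA fewer cells of a type cannot be told apart from less RNA per cell.

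The promoters of 4 members on which the account turns are given first. They are the windows from 250 bases before to 50 bases after the gene start in RefSeq on GRCm38.p6, 5′ to 3′ on the gene's strand, with each CG dinucleotide in capitals. Slc25a5 and Slc25a31 encode ADP and ATP carriers of the X chromosome and of an autosome. Slc22a16 and Slc22a5 encode carnitine transporters, of which the first was lower in the knockout-labelled library and the second was not. The windows are chrX:36795347-36795646 (plus strand) for Slc25a5, chr3:40708621-40708920 (plus strand) for Slc25a31, chr10:40570112-40570411 (plus strand) for Slc22a16 and chr11:53891654-53891953 (minus strand) for Slc22a5.
Slc25a5: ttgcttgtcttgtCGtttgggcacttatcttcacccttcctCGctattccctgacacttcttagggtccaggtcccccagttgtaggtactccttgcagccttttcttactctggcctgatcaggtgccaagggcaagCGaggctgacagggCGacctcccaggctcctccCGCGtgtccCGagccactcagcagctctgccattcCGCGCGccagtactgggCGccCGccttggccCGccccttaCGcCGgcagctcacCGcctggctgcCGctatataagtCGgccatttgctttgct
Slc25a31: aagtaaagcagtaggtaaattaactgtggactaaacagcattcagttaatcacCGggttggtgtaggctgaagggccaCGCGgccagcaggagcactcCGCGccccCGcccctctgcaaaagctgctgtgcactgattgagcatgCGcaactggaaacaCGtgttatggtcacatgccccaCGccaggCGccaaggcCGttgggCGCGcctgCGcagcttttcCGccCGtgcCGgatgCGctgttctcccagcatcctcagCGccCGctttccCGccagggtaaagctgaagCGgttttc
Slc22a16: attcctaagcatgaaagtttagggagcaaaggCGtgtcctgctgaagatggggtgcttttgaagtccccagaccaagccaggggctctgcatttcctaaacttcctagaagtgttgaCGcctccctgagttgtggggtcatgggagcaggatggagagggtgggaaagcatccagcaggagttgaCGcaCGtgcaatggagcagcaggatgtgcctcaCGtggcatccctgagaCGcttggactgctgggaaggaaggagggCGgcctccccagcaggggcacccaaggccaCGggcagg
Slc22a5: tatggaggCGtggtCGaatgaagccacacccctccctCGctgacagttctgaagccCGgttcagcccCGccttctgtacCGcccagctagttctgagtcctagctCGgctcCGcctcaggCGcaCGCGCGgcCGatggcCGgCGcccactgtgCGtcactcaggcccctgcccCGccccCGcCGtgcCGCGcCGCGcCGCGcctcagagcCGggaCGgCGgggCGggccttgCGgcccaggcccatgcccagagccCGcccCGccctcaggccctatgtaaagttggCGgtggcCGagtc

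Taken over all members, more were lower than higher in the knockout-labelled library. Of the 95, 25 (26.3%) were 2-fold lower, 14 (14.7%) 2-fold higher and 56 within 2-fold. Of all 8577 protein-coding genes that passed the same threshold, 21.5% were 2-fold lower and 13.1% 2-fold higher. On the deposited scale both shares of the members were thus near the background. The median log2 ratio was -0.50 for the members and -0.27 for those protein-coding genes. The threshold itself shapes these counts, since 12 members reached 10 TPM in wild type only and 16 in the knockout-labelled library only, and each of these had to be higher in the library that it passed in. Among the 67 members at 10 TPM or more in both libraries, 19 were 2-fold lower and 3 were 2-fold higher. Of the 6403 protein-coding genes under that filter, 18.2% were 2-fold lower and 4.53% 2-fold higher, so lower genes outnumbered higher ones there too.

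The split depended on the scale. Rescaling by the trimmed mean gave 14 higher and 23 lower, rescaling over protein-coding genes 19 and 22, and a sum without mitochondrial genes or the top 20 genes 19 and 21. Of the 8577 protein-coding genes, 15.3%, 19.3% and 20.3% were then 2-fold higher and 17.2%, 13.4% and 12.3% 2-fold lower. The count of lower members thus fell less than the share of lower genes in the background. The members' median was then -0.36, -0.18 and -0.12, beside -0.12, 0.07 and 0.13 for the protein-coding genes. Of the 25 members counted as lower, 21 remained 2-fold lower under every rescaling. All 14 counted as higher remained so, but each rescaling raised the knockout-labelled library against wild type. No higher member could therefore be lost, and this says nothing about how firm the higher counts are.

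**Figure D1:**
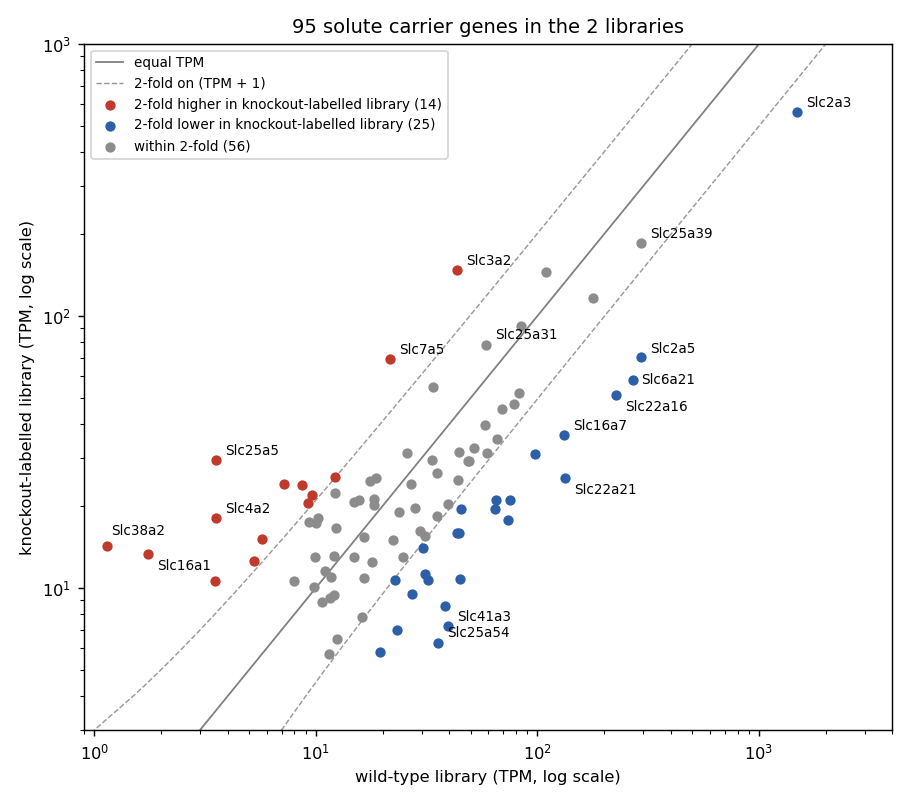
TPM of each of the 95 solute carrier genes in the wild-type library (x axis, log scale) and the knockout-labelled library (y axis, log scale), 1 point per gene, coloured by whether it passed 2-fold on (TPM + 1). The 25 lower genes include the most abundant member, Slc2a3. The 14 higher genes had wild-type levels from 1.14 to 43.5 TPM. Only 3 of these 14 passed the threshold in both libraries. The others passed in the knockout-labelled library only, so the choice of members kept their wild-type levels below the threshold.

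As a share of protein-coding TPM the members held 0.903% in wild type against 0.659% for the knockout-labelled library, with sums of 5647 and 3225 TPM. Slc2a3 alone made up 26.2% and 17.4% of those sums. Without it the members held 0.666% and 0.544% of protein-coding TPM.

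All 4 sugar transporters were lower in the knockout-labelled library. Their TPM summed to 1879 and 672.9, or to 398.0 and 111.9 without Slc2a3, with a median log2 ratio of -1.49 that lay between -1.34 and -1.10 after rescaling. Slc2a3 (ENSMUSG00000003153; mm10 chromosome 6, 122727809 to 122801640, minus strand) encodes GLUT3, a high-affinity glucose transporter. It stood at 1481 TPM in the wild-type library and 560.9 TPM in the knockout-labelled library (log2 ratio -1.40), the 14th and 51st most abundant protein-coding gene. This gene crossed the 2-fold line to -0.99 when mitochondrial and the most abundant genes were left out.

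Slc2a5, which encodes the fructose transporter GLUT5, stood at 293.3 and 70.6 TPM (log2 ratio -2.04). Slc2a8, for the intracellular hexose transporter GLUT8, stood at 65.0 and 21.01 TPM (log2 ratio -1.59). These genes were 4.16-fold and 3.10-fold lower, and Slc45a4, at 39.6 and 20.3 TPM (log2 ratio -0.93), stayed within 2-fold. Slc2a1, which encodes the widely expressed glucose transporter GLUT1 and was singled out after its values were seen, was below the threshold and differed the other way, at 0.19 and 3.63 TPM (log2 ratio 1.96). In both libraries it stood far below Slc2a3.

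Monocarboxylate transporters, which carry lactate and pyruvate, differed in both directions. Slc16a7 (mm10 chromosome 10, 125219270 to 125389465, minus strand) encodes MCT2, the high-affinity form present in sperm, and stood at 131.7 TPM in the wild-type library and 36.4 TPM in the knockout-labelled library (log2 ratio -1.83). Slc16a1 (mm10 chromosome 3, 104638668 to 104658462, plus strand) encodes the widespread MCT1 and stood at 1.75 and 13.3 TPM (log2 ratio 2.38). It reached 10 TPM in the knockout-labelled library only, so the choice of members fixed its direction. Slc16a7 remained the more abundant of this pair in both libraries, but its lead over Slc16a1 was smaller in the knockout-labelled library. Slc16a3, for the lactate exporter MCT4, stood at 6.93 and 3.77 TPM and Slc16a8, for MCT3, at 0.69 and 1.57 TPM, both below the threshold.

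Slc13a5, which encodes the sodium-coupled citrate transporter, was the remaining member of the carboxylate class, at 74.8 and 21.02 TPM (log2 ratio -1.78). It was lower in the knockout-labelled library, like Slc16a7. Bsg, the chaperone that brings MCT1 and MCT4 to the cell surface, stood at 248.6 and 233.4 TPM, with a log2 ratio of -0.09 whose sign changed with each rescaling.

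**Figure D2:**
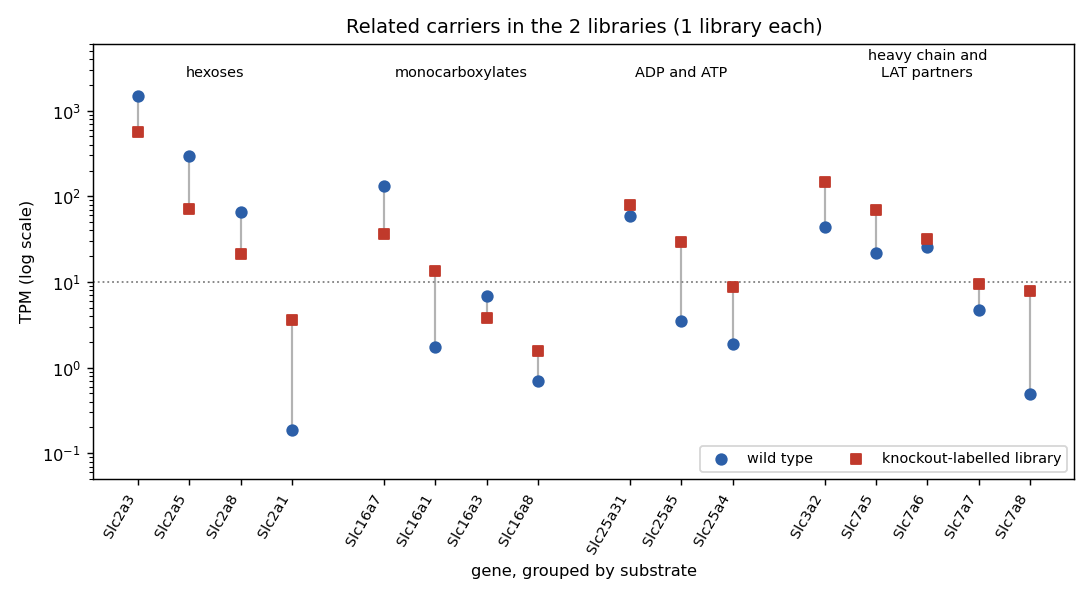
TPM (log scale) of related carriers in wild type (circles) and the knockout-labelled library (squares), grouped by substrate, with a dotted line at the threshold of 10 TPM and 1 library per genotype. The wild-type circle lies above the square for Slc2a3, Slc2a5, Slc2a8, Slc16a7 and Slc16a3, and below it for the other genes shown.

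Mitochondrial carriers, which exchange metabolites across the inner mitochondrial membrane, were the largest class, with equal counts on both sides. Of 23 members, 3 were 2-fold higher and 3 were 2-fold lower, with a median log2 ratio of 0.03 and sums of 915.7 and 806.8 TPM. Of all protein-coding genes at the threshold, 13.1% were higher and 21.5% lower. The threshold fixed the direction of the 5 members that passed in the knockout-labelled library only, all 3 higher ones among them. It also fixed that of 4 that passed in wild type only, Slc25a2 and Slc25a54 among them. The median lay between 0.18 and 0.42 after rescaling. The class held both directions at low and at high levels.

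The ADP and ATP carriers exchange these nucleotides between mitochondria and cytosol. Slc25a31 (ENSMUSG00000069041; mm10 chromosome 3, 40708855 to 40726096, plus strand) encodes the germ-cell form ANT4 and stood at 58.6 TPM in the wild-type library and 78.3 TPM in the knockout-labelled library (log2 ratio 0.41). Slc25a5 (ENSMUSG00000016319; mm10 chromosome X, 36795651 to 36798807, plus strand) encodes ANT2, the common form of dividing cells, and stood at 3.53 and 29.5 TPM, 8.36-fold higher (log2 ratio 2.75). Slc25a4, for the heart and muscle form ANT1, was below the threshold at 1.87 and 8.71 TPM (log2 ratio 1.76). Slc25a31 was the most abundant of this group in both libraries, and the largest difference lay in the X-linked Slc25a5. Carriers of this group are close copies and Slc25a5 has pseudogenes, so reads could be split between them, and these levels are uncertain to that extent.

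Slc25a5 was the only X-linked member. It reached 10 TPM in the knockout-labelled library only, so the choice of members fixed its direction. Of 140 X-linked protein-coding genes at 10 TPM or more, 89.3% were 2-fold higher in the knockout-labelled library. That share comes from the same threshold, which also admits genes through the library where they are high. Of the 94 autosomal members, 13 were 2-fold higher and 25 were 2-fold lower, with a median log2 ratio of -0.52. Over all levels the table held 13 X-linked solute carrier genes, of which 12 reached 1 TPM in at least 1 library. Of these, 7 were 2-fold higher and 0 lower, with a median of 1.07, against 41 higher and 35 lower among 224 autosomal ones. Of all protein-coding genes at 1 TPM or more, 62.7% of the X-linked were 2-fold higher and 5.97% lower, and 16.7% of the autosomal were 2-fold higher and 17% lower. Slc6a8, for the creatine transporter, stood at 0.88 and 7.03 TPM and was singled out after its values were seen.

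Among the other mitochondrial carriers, Slc25a39, which imports glutathione, stood at 294.8 and 185.0 TPM (log2 ratio -0.67) and was the most abundant. Slc25a3, the phosphate carrier, stood at 108.8 and 144.6 TPM (log2 ratio 0.41). Both stayed within 2-fold. The lowest ratios were those of Slc25a54 (35.7 and 6.28 TPM, log2 ratio -2.33) and Slc25a2 (38.1 and 8.61 TPM, log2 ratio -2.03), whose human relative carries ornithine. Slc25a51, the mitochondrial NAD carrier, stood at 5.72 and 15.1 TPM (log2 ratio 1.26) and Slc25a30 at 7.15 and 24.2 TPM (log2 ratio 1.63). Slc25a46, a protein of the outer membrane, had a log2 ratio of 0.03. The remaining 14 members had log2 ratios from -1.42 to 0.82, with 1 of them 2-fold lower.

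Listed partner proteins of carriers, Bsg among them, were mostly within 2-fold, with 1 of 10 2-fold higher and 0 lower. Most protein-coding genes at 1 TPM or more were also within 2-fold, with 18.7% higher and 16.5% lower. Vdac1, an outer-membrane pore, stood at 2.25 and 13.4 TPM (log2 ratio 2.14). Vdac2 and Vdac3, the abundant pores of this tissue, stood at 551.0 and 275.7 TPM and at 341.1 and 249.3 TPM. The log2 ratio of Vdac2 was -0.997, just inside the 2-fold line. For the pyruvate carrier subunits the ratios were -0.50 for Mpc2 and -0.03 for Mpc1, and the sign of the latter changed with each rescaling.

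Transporters of organic ions were mostly lower in the knockout-labelled library. Of 7 members, 5 were 2-fold lower and 0 higher, with a median log2 ratio of -1.59 that lay between -1.45 and -1.26 after rescaling, and sums of 516.1 and 156.2 TPM. Across all protein-coding genes at the threshold, 21.5% were lower and 13.1% higher. Slc22a18, a lower member whose ratio is the class median, passed in wild type only (19.4 and 5.81 TPM). The threshold fixed its direction. Slc22a16 (mm10 chromosome 10, 40570336 to 40604132, plus strand), known in human testis as a carnitine transporter, stood at 225.5 and 51.2 TPM (log2 ratio -2.12). Slc22a21, a mouse carnitine transporter, stood at 133.2 and 25.3 TPM and had the lowest log2 ratio of all members, -2.35. Slc22a5, for the general carnitine transporter OCTN2, stood at 18.2 and 20.2 TPM (log2 ratio 0.14).

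Slc22a5 and Slc22a21, close relatives between which reads could be split, are neighbours on mm10 chromosome 11, both on the minus strand, with 58305 bases between them. Slc22a5 spans 53864542 to 53891660 and Slc22a21 spans 53949965 to 53980332. The pair thus held 1 gene at a similar level in both libraries and 1 at 5.26-fold lower. Slc22a14, which carries riboflavin in mouse sperm, stood at 31.0 and 11.3 TPM (log2 ratio -1.38). Slc22a15 stood at 44.6 and 10.8 TPM (log2 ratio -1.95), and Slc47a2, a proton-coupled exporter of organic cations, at 44.2 and 31.6 TPM (log2 ratio -0.47). Slc22a18 made up the rest with a log2 ratio of -1.59.

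**Figure D3:**
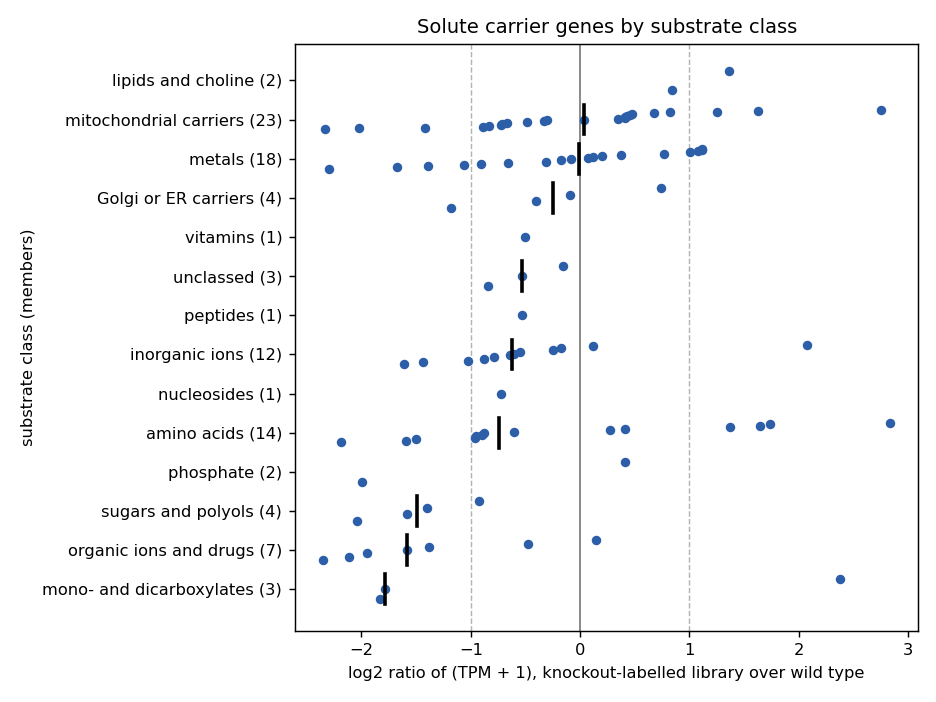
Log2 ratio of (TPM + 1) in the knockout-labelled library over wild type (x axis) for each of the 95 genes, 1 point per gene, by substrate class with the number of members in brackets. Black bars mark the median of classes of 3 or more members and dashed lines mark 2-fold. All 4 sugar transporters and 6 of 7 organic ion transporters lie below 0, while metal and mitochondrial carriers spread to both sides.

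Amino acid transporters included members far out on both sides. Of 14, 4 were 2-fold higher and 3 were 2-fold lower, with a median log2 ratio of -0.74 and sums of 784.7 and 576.3 TPM. Among all protein-coding genes at the threshold, 13.1% were higher and 21.5% lower. The threshold fixed the direction of 2 that passed in the knockout-labelled library only, Slc38a2 and Slc6a9. It also fixed that of 2 that passed in wild type only, Slc6a6 and the 2-fold lower Slc1a2 (23.3 and 7.02 TPM). Slc38a2, for the system A transporter SNAT2, which takes up small neutral amino acids, had the highest log2 ratio of all members, 2.84, at 1.14 TPM in the wild-type library and 14.3 TPM in the knockout-labelled library. Slc3a2, the heavy chain that carries several amino acid transporters to the cell surface, stood at 43.5 and 147.5 TPM (log2 ratio 1.74). Its light chain Slc7a5 (LAT1), a transporter of large neutral amino acids, stood at 21.5 and 69.5 TPM (log2 ratio 1.64). Heavy and light chain were thus 3.39-fold and 3.22-fold higher. Slc6a9, for the glycine transporter GLYT1, stood at 3.51 and 10.65 TPM (log2 ratio 1.37).

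In the other direction, Slc6a21 (mm10 chromosome 7, 45277513 to 45288998, plus strand), whose substrate is not known, stood at 268.8 and 58.2 TPM (log2 ratio -2.19). Its neighbour Slc6a16, 4146 bases away on the same strand, had a log2 ratio of -1.50, so both genes of this pair were 2-fold lower. Slc38a6 stood at 177.4 and 116.2 TPM (log2 ratio -0.61) and the taurine transporter gene Slc6a6 at 16.1 and 7.80 TPM (log2 ratio -0.96). The 7 remaining members, Slc6a16 among them, had log2 ratios from -1.60 to 0.41. Slc7a6, another light chain, had a ratio of 0.27, and Slc7a6os, the gene that lies opposite it 2011 bases away, one of -0.53.

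Metal transporters held equal counts on both sides, with 4 of 18 members 2-fold higher and 4 lower. Of all protein-coding genes at the threshold, 13.1% were higher and 21.5% lower. The threshold fixed the direction of 4 members that passed in the knockout-labelled library only, the higher Slc31a1, Slc30a4 and Slc39a7 among them. It also fixed that of 2 that passed in wild type only, the lower Slc41a3 among them. The median log2 ratio of the class was -0.01 and turned positive under each rescaling, to between 0.14 and 0.38, and the sums were 502.6 and 394.5 TPM. Slc41a3, of a family of magnesium transporters, stood at 39.4 and 7.24 TPM (log2 ratio -2.30). Slc30a3, which loads zinc into vesicles, stood at 64.4 and 19.4 TPM (log2 ratio -1.68). The most abundant zinc transporters differed less, with Slc30a9 at 84.7 and 92.1 TPM (log2 ratio 0.12) and Slc39a6 at 82.9 and 52.1 TPM (log2 ratio -0.66).

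Slc31a1, the copper importer, stood at 9.62 and 21.95 TPM (log2 ratio 1.11) and Slc30a4, a zinc exporter, at 5.27 and 12.6 TPM (log2 ratio 1.11). Slc41a2 had a log2 ratio of 0.38. Slc30a1, the zinc exporter of the plasma membrane, stood at 11.6 and 9.15 TPM (log2 ratio -0.31), with the sign changed by 2 of the 3 rescalings. The 10 remaining members had log2 ratios from -1.40 to 1.08, with 2 higher and 2 lower. Slc39a1, a zinc importer below the threshold, stood at 3.54 and 9.28 TPM (log2 ratio 1.18) and Slc39a2 at 0.16 and 0.30 TPM.

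Transporters of protons, sodium, chloride, bicarbonate and calcium were lower more often than higher. Of 12 members, 3 were 2-fold lower and 1 was 2-fold higher, with a median log2 ratio of -0.62 that lay between -0.47 and -0.22 after rescaling. Among all protein-coding genes at the threshold, 21.5% were lower and 13.1% higher, so lower genes outnumbered higher ones there too. The threshold fixed the direction of 2 members that passed in wild type only. Slc26a8, an anion transporter of the sperm tail that mouse sperm need to swim, stood at 97.1 and 31.2 TPM (log2 ratio -1.61). Slc9a8, for an organelle sodium and proton exchanger that mouse germ cells need to form the acrosome, stood at 51.5 and 32.7 TPM (log2 ratio -0.64).

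Slc4a2, the anion exchanger AE2, went the other way at 3.53 and 18.1 TPM (log2 ratio 2.07). It reached 10 TPM in the knockout-labelled library only, so the choice of members fixed its direction. Slc12a2, a sodium, potassium and chloride cotransporter that mice need for sperm formation, stood at 12.02 and 13.2 TPM (log2 ratio 0.12). A further 7 members had log2 ratios from -1.43 to -0.18. Below the threshold, Slc26a6 stood at 2.16 and 8.90 TPM (log2 ratio 1.65), Slc9a3 at 1.42 and 0.29 TPM (log2 ratio -0.91), and Slc26a3 at 1.35 and 1.28 TPM, with a log2 ratio of -0.04 and the opposite sign after each rescaling.

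The smaller classes held few members each. Slc34a2, a sodium and phosphate cotransporter, stood at 73.7 and 17.7 TPM (log2 ratio -1.997), while Slc20a1, of another family of phosphate transporters, stood at 12.3 and 16.6 TPM (log2 ratio 0.41). Slc27a1, which brings in fatty acids, stood at 8.69 and 23.9 TPM (log2 ratio 1.36), and Slc44a2, of the choline transporter-like family, at 9.31 and 17.5 TPM (log2 ratio 0.84). Phosphate carriers therefore differed in opposite directions. Both lipid or choline carriers reached 10 TPM in the knockout-labelled library only, so the choice of members fixed their direction.

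Among the 4 carriers of the Golgi and endoplasmic reticulum, Slc35a3, which carries UDP-N-acetylglucosamine, stood at 45.4 and 19.5 TPM (log2 ratio -1.18, above -1 under 2 rescalings). For Slc35a5 the log2 ratio was -0.40, for Slc35a4 0.74, and for Slc33a1, the acetyl-CoA transporter, -0.09, which became positive after each rescaling. Their median was -0.25, which turned positive under 2 of 3 rescalings. Slc35a4 passed in the knockout-labelled library only (9.996 and 17.4 TPM), so the choice of members fixed its direction. Slc29a1, the nucleoside transporter ENT1, stood at 78.7 and 47.3 TPM (log2 ratio -0.72) and Slc15a4, a lysosomal carrier of histidine and peptides, at 58.3 and 39.9 TPM (log2 ratio -0.54). Slc19a2, a thiamine transporter, stood at 17.99 and 12.4 TPM (log2 ratio -0.50). Slc10a7 and Slc4a1ap had log2 ratios of -0.84 and -0.15, the latter turning under 2 rescalings. These last 5 genes were all within 2-fold.

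Of 22 listed transporters reported in sperm or germ cells, 20 reached 1 TPM in at least 1 library. Of these, 7 were 2-fold lower and 4 were 2-fold higher, with a median log2 ratio of -0.69. Of all 15000 protein-coding genes at 1 TPM or more, 16.5% were 2-fold lower and 18.7% 2-fold higher. The list summed to 2496 and 980.5 TPM, and to 1015 and 419.6 TPM without Slc2a3. The 7 lower ones were Slc2a3, Slc2a5, Slc2a8, Slc16a7, Slc22a14, Slc22a16 and Slc26a8. The 4 higher ones were Slc4a2, Slc16a1, Slc26a6 and Slc39a1. The library with less of the first group also had less of the spermatid markers, and the one with more of the second had more of the Leydig, Sertoli and spermatogonia markers; the part of either was not tested.

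Promoters of 76 members were found in the RefSeq windows, and their CG content was set beside the ratios. The observed over expected CpG ratio compares the number of CG dinucleotides with that given by the C and G content, and a CG was present in 94.6% of all 32851 windows. The 4 sequences printed above held 18 (Slc25a5), 22 (Slc25a31), 8 (Slc22a16) and 34 (Slc22a5) CG dinucleotides, with ratios of 0.669, 0.826, 0.322 and 0.875. Slc22a16 had the fewest of these and was 4.40-fold lower in the knockout-labelled library, while Slc25a5, with the next fewest, was 8.36-fold higher. These 4 promoters were picked and show no relation between CG content and level.

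The median CpG ratio was 0.554 for 21 members that were 2-fold lower, 0.754 for 11 that were 2-fold higher and 0.816 for 44 within 2-fold. A ratio under 0.4 was found for 5 of the 21 (23.8%), 1 of the 11 and 2 of the 44. Protein-coding genes that passed the same threshold and had a window (1404 lower, 871 higher and 4476 within 2-fold) showed the same order, with medians of 0.605, 0.763 and 0.823 and with 32.2%, 12.4% and 6.70% under 0.4, so this order was not particular to solute carriers. Over all windows the median was 0.384. The deposited gene length had medians of 3872 bases for the lower, 4856 for the higher and 5465 for the other members, against 4180 bases for all protein-coding genes at the threshold.

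**Figure D4:**
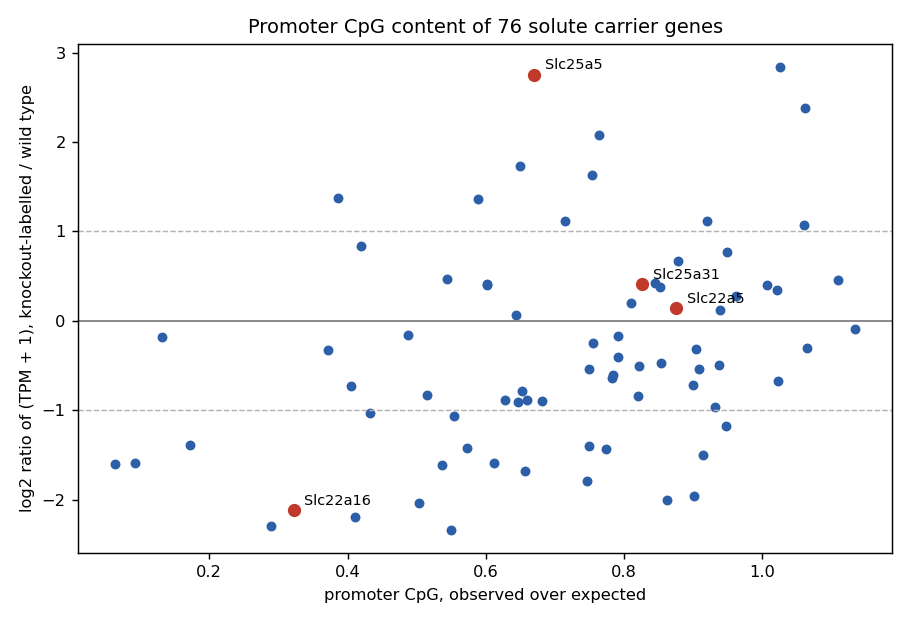
Promoter CpG ratio (observed over expected, x axis) and log2 ratio of (TPM + 1) in the knockout-labelled library over wild type (y axis) for the 76 solute carrier genes with a RefSeq promoter window, 1 point per gene, with the 4 printed promoters in red. Dashed lines mark 2-fold. Of the 8 genes under 0.4, 5 were 2-fold lower and 1 was 2-fold higher.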

How the data were processed

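RNA of 2 mouse spermatocyte libraries, 1 per genotype, was compared. Per the labels' protocols, RNA was depleted of ribosomal RNA and strand-specific libraries were sequenced as single-end reads of 75 bases. The authors deposited TPM per gene, summing to 1000000 per library. Per the file headers, the deposited table also gives gene length in bases and G+C content in percent. The submitters' processing notes name kallisto 0.43.1, GSNAP, TopHat, bcl2fastq 2.19.1 and the build mm10, without their roles or order. All 95 members were in GENCODE M21 (GRCm38), 90 with the same start and end.

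Ratios used a pseudocount of 1 TPM. No test was run, since each genotype had 1 library. The ratio and count functions were tested on simulated data. Substrate classes followed the family number with listed exceptions; Slc7a6os and Slc4a1ap were set apart after the members were seen. The members and lists were chosen with earlier results of these data known. Genes named were the 15 most abundant members, the 12 highest and 12 lowest ratios, in each class the 3 most abundant and both extremes, X-linked members, listed germ-cell transporters, the ADP and ATP carriers, and the genes nearest the threshold. Some genes that this rule names are not reported here. Rescalings were the trimmed mean (30% trimmed at each end), the protein-coding sum, and the sum without mitochondrial and the 20 most abundant genes, with members fixed. Promoters came from RefSeq (GRCm38.p6); the median was used where a gene had several. Ratios were computed with pandas 2.3.3 and NumPy 2.4.6 in Python 3.11.15, and plots drawn with Matplotlib 3.10.9.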

Additional observations from a re-analysis of the deposited data

How the results depend on the processing

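With 1 library per genotype no library could be left out, and the unknown depth limits every value, most of all at low TPM. No paired analysis was possible because each genotype had 1 library. The count of 14 members that were 2-fold higher became 8 with a pseudocount of 5 TPM, 28 of 135 genes at a threshold of 5 TPM, 48 of 236 at 1 TPM and 8 of 68 at 20 TPM. Counting at 4-fold gave 4 higher and 7 lower. The count of 25 lower members stayed within 1.5 times under the other settings run, but the number of genes counted did not stay the same. It was 24 of 68 at 20 TPM, 29 of 135 at 5 TPM and 35 of 236 at 1 TPM, so the share of lower genes fell with the threshold. The median of all members turned to 0.029 at a threshold of 1 TPM. The medians of amino acid, metal and Golgi or endoplasmic reticulum carriers turned to 0.31, 0.16 and 0.29 at 5 TPM and to 0.22, 0.27 and 0.32 at 1 TPM. That of carboxylate carriers moved to -0.69 at 5 TPM and -0.041 at 1 TPM, and that of sugar transporters to -0.50 at 1 TPM. The metal median turned to 0.14, 0.33 and 0.38 under the trimmed mean, protein-coding and reduced-sum rescalings, and the Golgi or endoplasmic reticulum median to 0.095 and 0.15 under the last 2. Lower thresholds add genes of low level, and the cause of the other moves was not tested.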

Other observations

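Solute carrier genes below the threshold leaned the other way from the abundant ones. Of 141 genes that reached 1 TPM but not 10 TPM, 34 (24.1%) were 2-fold higher in the knockout-labelled library and 10 (7.09%) were 2-fold lower, with a median log2 ratio of 0.32. All 6423 protein-coding genes in that range showed nearly the same shares, 26.1% and 9.87%, and a median of 0.32. The highest ratios, chosen after their values were seen, were those of Slc4a10, a sodium and bicarbonate transporter (0.28 TPM against 6.92 TPM, wild type first), and Slc7a8, a further light chain of the Slc3a2 heavy chain (0.49 and 7.79 TPM). Slc1a4, a neutral amino acid transporter, stood at 0.42 and 4.28 TPM, and Slc11a1, a metal transporter of macrophage vesicles, at 1.28 and 6.196 TPM. The lowest were Slc38a11 (5.85 and 0.99 TPM) and Slc17a9, which loads nucleotides into vesicles (9.24 and 2.12 TPM).

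Transporters whose symbols lie outside the solute carrier pattern were listed separately. Of 31 at 1 TPM or more, 8 were 2-fold lower and 5 were 2-fold higher. Of all protein-coding genes at that level, 16.5% were 2-fold lower and 18.7% 2-fold higher. Slc9c1, the sodium and proton exchanger of mouse sperm, stood at 142.1 and 41.1 TPM and its relative Slc9b1 at 242.0 and 102.8 TPM. The organic anion transporter genes Slco6c1, Slco6d1, Slco6b1 and Slco3a1 had log2 ratios of -1.37, -1.32, -1.30 and -2.60. Rhcg, an ammonium transporter, stood at 48.5 and 6.72 TPM. Mfsd10 (0.69 and 13.5 TPM) and Micu2, a regulator of mitochondrial calcium uptake (12.3 and 33.6 TPM), were among the higher ones.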
